A study of Homo sapiens with 24 samples.

Results

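KMS-12-BM is a multiple myeloma cell line established from bone marrow, and the data described here are the 6 of 24 total RNA-seq libraries that measured the loss of the transcription factor IRF4 in that line. The libraries were chosen by cell line and condition alone. The 3 siIRF4 libraries came from cells electroporated with a pool of siRNAs against IRF4 and are labelled 48 hours. The 3 CTRL libraries came from the same line and are labelled as DMSO at 0 hours, with no control siRNA named. Knockdown, siRNA delivery, electroporation, DMSO and time therefore differ together between siIRF4 and CTRL and cannot be told apart. All 24 libraries came from 4 lines (KMS-12-BM, KMS-12-PE, MM1R and MM1S), each grown in serum-containing medium and each with 3 siIRF4 and 3 CTRL libraries. Of 25342 listed genes, 12576 had at least 1 TPM (transcript abundance corrected for gene length and library size) in at least 3 of the 6 KMS-12-BM libraries and were tested. Nothing in the labels makes the replicates separate cultures, and the p-values below refer to the scatter of these libraries, which may be technical. As each library is a bulk sample, fewer cells of one kind and less RNA per cell cannot be told apart.

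IRF4 (interferon regulatory factor 4) is a lymphoid member of the IRF family that binds DNA together with partners such as PU.1, SPIB and BATF. It is needed for plasma cell formation, in which it acts with PRDM1 and XBP1 to set up antibody secretion. Myeloma cells, which are malignant plasma cells, depend on it, and MYC and the gene for the surface receptor BCMA are among its known targets.

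The libraries held 18.35 M to 25.29 M recovered reads in siIRF4 and 20.87 M to 23.79 M in CTRL. One of them stood apart. Over 39 genes abundant in the MM1R and MM1S lines and near absent in KMS-12-BM CTRL cells, siIRF4 replicate 1 held a median of 1.12% of the MM1 level. The other siIRF4 libraries held 0.417% and 0.329%, and the CTRL libraries 0.404%, 0.381% and 0.315%. ITGB7, an integrin chain gene abundant in MM1 cells, was at 186 TPM in siIRF4 replicate 1, at 64.1 and 58.1 TPM in the other siIRF4 libraries, and at 82.3, 93.2 and 86.0 TPM in CTRL. A gene was taken as open to MM1-type transcripts where 1.12% of its mean MM1 level exceeded 25% of its siIRF4 to CTRL difference. This held for 3916 tested genes, of which 39 were called higher and 32 lower. Genes with a small difference meet this rule more easily than called genes. The low number of calls among them therefore does not show that the calls are free of MM1-type transcripts. Counts of all calls and of most gene lists are therefore given below with and without siIRF4 replicate 1. Comparisons with other lines and promoter matches were counted with all libraries unless stated. Of the plasma cell markers, TNFRSF17, XBP1, POU2AF1 and MZB1 were at 79.96 TPM or more in every library, whereas SDC1, which encodes the plasma cell marker CD138, was at 4.59 to 9.53 TPM in siIRF4 and at 5.57 to 6.42 TPM in CTRL. Of the markers of earlier B cells, MS4A1 stayed at or below 1.06 TPM in all 6 libraries, whereas PAX5 averaged 9.43 ± 0.54 TPM in siIRF4 and 11.3 ± 0.19 TPM in CTRL. The cyclin gene CCND1, a known translocation target in KMS-12 lines, was at 618 to 660 TPM in siIRF4 and at 612 to 627 TPM in CTRL.

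**Figure D1:**
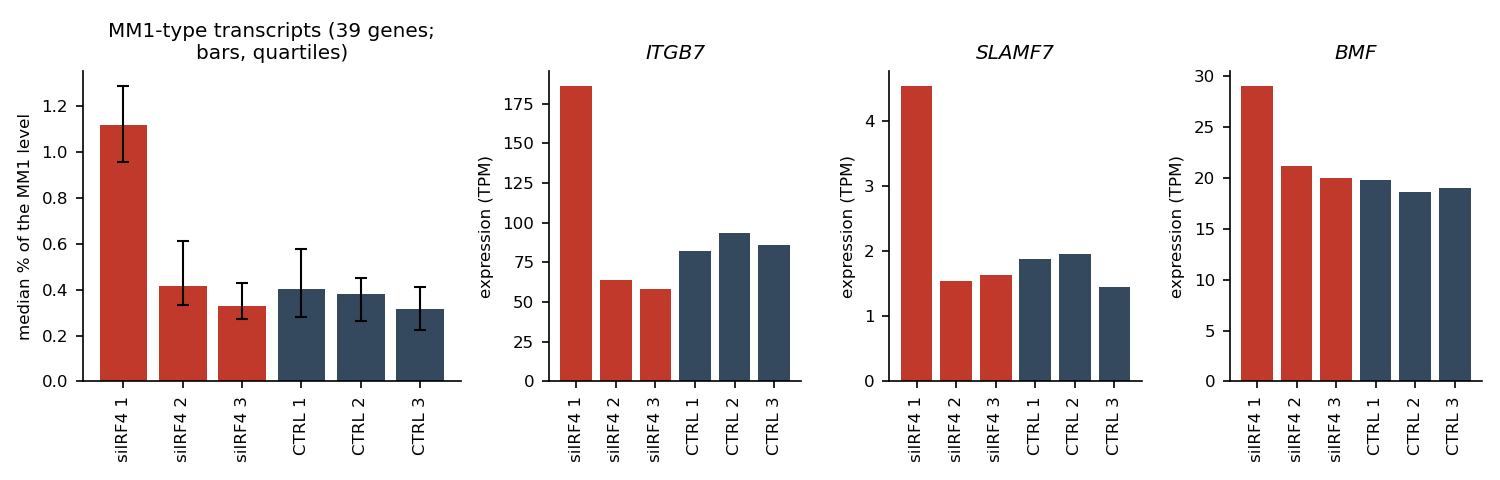
Median level of 39 MM1-type genes as a percentage of their level in MM1 lines (left, error bars are quartiles) and TPM of ITGB7, SLAMF7 and BMF in each siIRF4 (red) and CTRL (dark) library of KMS-12-BM. In all 4 panels siIRF4 replicate 1 is the highest library, at 1.12% for the MM1-type genes.

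IRF4 mRNA was reduced but not removed. It was at 205, 221 and 241 TPM in siIRF4 libraries and at 357, 361 and 364 TPM in CTRL libraries. Every siIRF4 library was below every CTRL library, and 61.6% of the CTRL level was left. The log2 change was -0.70 ± 0.05 (SE; limma, Benjamini-Hochberg adjusted p = 5.74e-05), and it was -0.64 without siIRF4 replicate 1, the library with the least IRF4. An exact two-sided permutation test of the 6 values gave p = 0.1, the smallest that 3 against 3 allows. The loss in KMS-12-BM, 38.4%, compares with 52.6% in KMS-12-PE, 50.4% in MM1S and 23.5% in MM1R.

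Against that reduction, 2401 of 12576 genes (19.1%) passed an adjusted p of 0.05 in limma on log2(TPM + 1). Of these, 1485 (11.8% of tested genes) were higher and 916 (7.28%) were lower in siIRF4. Most of the changes were small, with a median size of 0.27 on the log2 scale, and only 33 of the higher and 16 of the lower genes reached a log2 change of 1. Without siIRF4 replicate 1, 1078 genes (8.57%) were called higher and 885 (7.04%) lower, and 1019 higher and 727 lower genes were shared with the calls on all 6 libraries. The split between higher and lower depended on scaling: 61.8% of calls were higher as deposited and 45.9% after median-of-ratios scaling (1131 higher, 1334 lower), while the median change of all genes was 0.04 as deposited and -0.0036 after that scaling. The siIRF4 and CTRL values did not overlap in 4973 genes (39.5%), against which the statements on overlap below should be read. Counts of gene lists below are likewise to be read against the 11.8% called higher and the 7.28% called lower.

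The largest falls and rises were sought among called genes with a mean of at least 5 TPM in one condition. Their call also held without siIRF4 replicate 1, they were not open to MM1-type transcripts, and siIRF4 and CTRL values did not overlap. The largest fall was in TNFRSF17, which encodes BCMA, the receptor for the plasma cell survival factors BAFF and APRIL. It was at 81.7, 80.0 and 95.7 TPM in siIRF4 libraries, against 308, 294 and 323 TPM in CTRL libraries. In siIRF4, 27.8% of the CTRL level was left (log2 change -1.84 ± 0.07 SE, adjusted p = 1.08e-05 in limma). The transcript of BCMA lost a larger part of its level than the IRF4 transcript itself did. KLF2, a zinc-finger factor of lymphocyte homing and quiescence, was at 22.5, 21.3 and 21.2 TPM in siIRF4 and at 49.5, 42.5 and 43.9 TPM in CTRL (log2 change -1.03 ± 0.06). RASGRP3, an exchange factor that activates RAS downstream of the B cell receptor, was at 10.3, 9.50 and 11.8 TPM in siIRF4 and at 22.5, 22.9 and 25.3 TPM in CTRL (-1.09 ± 0.08).

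SLC2A5, the gene of the fructose transporter, fell as well. It was at 1.64, 2.25 and 2.33 TPM in siIRF4 and at 5.92, 7.64 and 7.62 TPM in CTRL (log2 change -1.39 ± 0.13). CAV1 and CAV2, the structural proteins of caveolae, fell together. CAV1 averaged 15.3 ± 2.4 TPM in siIRF4 and 33.1 ± 1.6 TPM in CTRL (SD, n = 3 each), and CAV2 averaged 2.92 ± 0.26 TPM in siIRF4 and 6.51 ± 0.48 TPM in CTRL. CCR2, the receptor for the chemokine CCL2, averaged 3.61 ± 0.15 TPM in siIRF4 and 8.10 ± 0.63 TPM in CTRL. MYEOV, named for its overexpression in myeloma, averaged 22.3 ± 3.0 TPM in siIRF4 and 44.6 ± 1.2 TPM in CTRL. PTP4A3, a phosphatase also called PRL-3, was at 23.1 TPM in siIRF4 replicate 1 and at 14.0 and 13.4 TPM in the other siIRF4 libraries, against 35.6, 33.2 and 35.7 TPM in CTRL. Its fall was larger without that library, with a log2 change of -1.29 against -1.05 ± 0.22 with all libraries. Outside these, AMPD1, the AMP deaminase of muscle and plasma cells, stood at 0.589, 0.790 and 0.345 TPM in siIRF4 and at 2.90, 3.38 and 3.45 TPM in CTRL (log2 change -1.44 ± 0.14, which understates the change of so low a gene because 1 was added to each TPM).

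**Figure D2:**
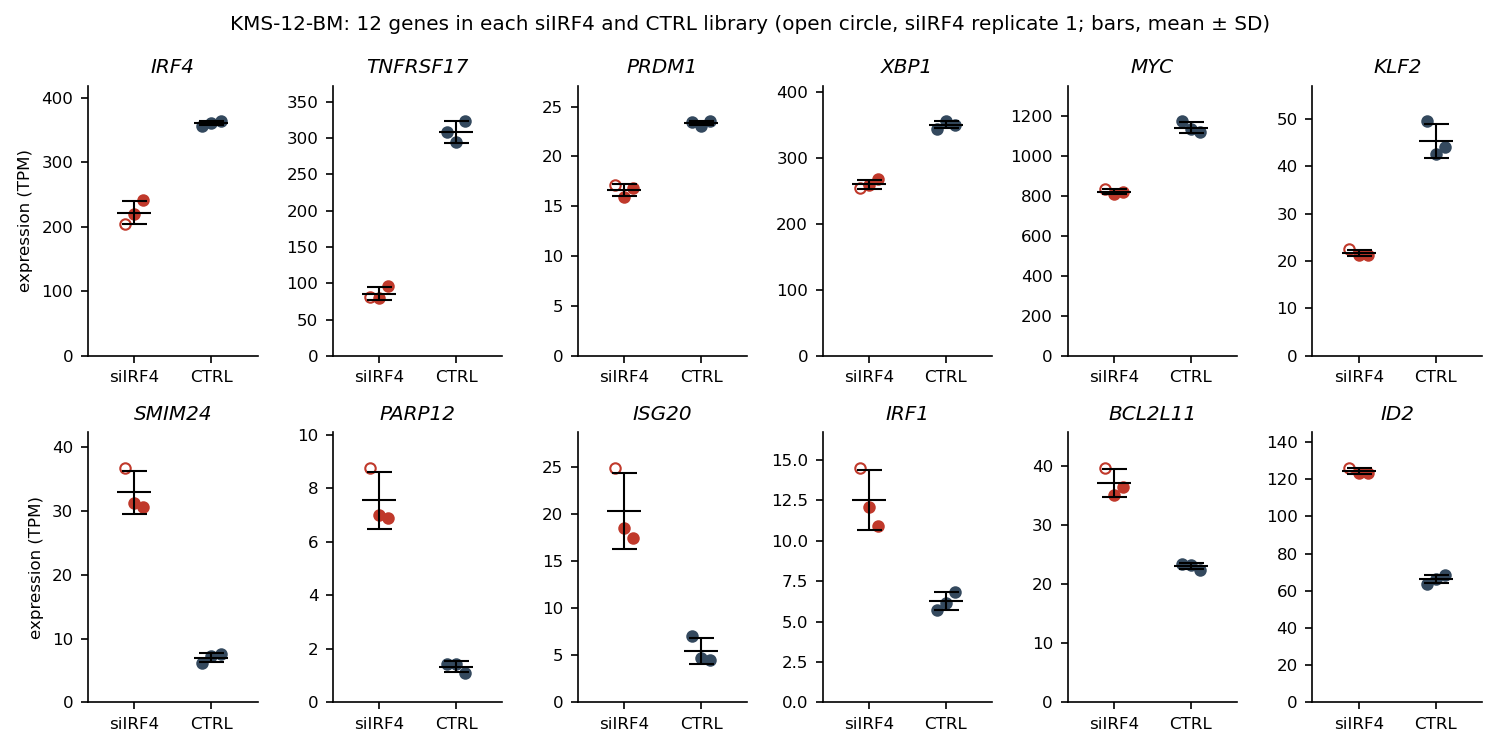
TPM of 12 genes in each KMS-12-BM library, siIRF4 in red and CTRL in dark, with mean ± SD; the open circle is siIRF4 replicate 1. The upper row holds IRF4 and genes that fell, the lower row genes that rose. In each of the 12 panels no siIRF4 library overlaps a CTRL library. For TNFRSF17, KLF2, SMIM24, PARP12 and ISG20 this was a condition of their choice.

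Genes of plasma cell identity moved mostly down. Of 23 tested members of a plasma cell list, 12 fell and 2 rose, with a median log2 change of -0.29 against 0.04 over all genes; 12 fell and 1 rose without siIRF4 replicate 1. Over all genes, 7.28% were called lower and 11.8% higher. Of the regulators, PRDM1, XBP1, POU2AF1 and ELL2 fell, and IKZF1 and IKZF3 did not pass. PRDM1, the repressor that ends the B cell programme, was at 17.1, 15.9 and 16.8 TPM in siIRF4 and at 23.4, 23.1 and 23.5 TPM in CTRL (log2 change -0.47 ± 0.05, adjusted p = 0.000355 in limma). XBP1, the factor of the secretory programme, was at 254, 259 and 267 TPM in siIRF4 and at 344, 356 and 350 TPM in CTRL (-0.43 ± 0.03). POU2AF1, the B cell coactivator OBF-1, averaged 131 ± 7.6 TPM in siIRF4 and 179 ± 5.6 TPM in CTRL. ELL2, the elongation factor that favours secreted immunoglobulin mRNA, averaged 8.89 ± 0.26 TPM in siIRF4 and 14.5 ± 0.63 TPM in CTRL. The siIRF4 and CTRL libraries did not overlap in any of these 4 genes. On a list of 17 genes linked to IRF4 in myeloma, which includes TNFRSF17, KLF2, PRDM1, ELL2 and MYC, 8 fell and none rose, with a median of -0.13, and 9 fell without siIRF4 replicate 1.

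Other members of the list were less clear. TXNDC5, an ER disulfide isomerase, was at 68.8, 73.5 and 102 TPM in siIRF4 and at 410, 286 and 174 TPM in CTRL. The CTRL libraries were themselves widely spread, and the log2 change of -1.75 ± 0.39 only just passed (adjusted p = 0.0488 in limma; 0.00161 to 0.17 over the alternatives). CD38, the target of daratumumab, was at 12.3, 16.7 and 20.1 TPM in siIRF4 and at 23.96, 26.4 and 28.1 TPM in CTRL, and did not pass (adjusted p = 0.0621 in limma). SLAMF7, GPRC5D and TNFRSF13B, surface antigens that are abundant in MM1 lines, were each highest of the siIRF4 libraries in replicate 1. SLAMF7 was at 4.53 TPM in that library and at 1.54 and 1.63 TPM in the other siIRF4 libraries, against 1.87, 1.95 and 1.45 TPM in CTRL. IKZF1 and IKZF3, the Ikaros factors degraded by lenalidomide, had log2 changes of 0.10 ± 0.04 and -0.11 ± 0.09, and neither passed.

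Of 16 tested B cell genes, 4 rose and 4 fell, with a median log2 change of -0.02, and the counts were the same without siIRF4 replicate 1. Over all genes, 11.8% were called higher and 7.28% lower. The risers on the B cell list included 2 ETS factors that bind DNA with IRF4. SPI1, which encodes PU.1, averaged 42.6 ± 2.6 TPM in siIRF4 and 31.5 ± 1.3 TPM in CTRL, and SPIB averaged 1.73 ± 0.21 TPM in siIRF4 and 0.801 ± 0.013 TPM in CTRL. BLNK, the adaptor of the B cell receptor, fell (113 ± 6.0 TPM in siIRF4, 150.3 ± 2.3 TPM in CTRL).

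The endoplasmic reticulum (ER) folding genes fell as a group. Secretory cells keep folding enzymes high through the unfolded protein response, in which the sensors ERN1 (IRE1), ATF6 and EIF2AK3 (PERK) switch on factors such as XBP1. Many of the genes these factors drive carry an ER stress response element (ERSE) in the promoter. Of 33 tested members, 21 fell and none rose, with a median log2 change of -0.23; the counts were 21 and 0 also without siIRF4 replicate 1, against 7.28% of all genes called lower. HERPUD1, a component of ER-associated degradation, fell most. It was at 96.0, 89.1 and 97.1 TPM in siIRF4 and at 185, 186 and 190 TPM in CTRL (log2 change -0.99 ± 0.04, adjusted p = 2.08e-06 in limma). The most abundant members were the chaperones CALR and HSP90B1. CALR was at 1399, 1449 and 1505 TPM in siIRF4 and at 1956, 2018 and 1981 TPM in CTRL (log2 change -0.45 ± 0.03). HSPA5, the chaperone BiP, was at 423, 472 and 509 TPM in siIRF4 and at 800, 826 and 763 TPM in CTRL (-0.77 ± 0.07). The sensors did not pass: the log2 change was -0.12 ± 0.11 for ERN1, -0.10 ± 0.08 for EIF2AK3 and 0.05 ± 0.05 for ATF6. HSPA5, HSP90B1, MANF and SDF2L1 and the sensors are named after their values were seen.

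Promoter windows of the ER genes were searched for these elements. Windows from 250 bases before to 50 bases after the start of transcription (RefSeq, GRCh38.p14) were read on both strands for ERSE, written as CCAAT and CCACG with 9 bases of any kind between them, and for ERSE-II, written as ATTGG and CCACG with 1 base between them. Among 35116 windows, 0.0769% held ERSE and 0.0541% held ERSE-II. Of the 33 tested ER genes, 28 had a window, and 10 of those held one of the elements: CALR, CANX, CRELD2, HERPUD1, HSP90B1, HSPA5, HYOU1, PDIA6, SDF2L1 and XBP1. All 10 fell, with log2 changes of -0.99 to -0.29. Of the 18 without a match, 7 fell and 11 did not pass, and the falls included MANF (-0.76) and PDIA4 (-0.60). Taken over all tested genes with a window and not only the ER list, 25 held an element; 10 fell, and 1, TMEM120A, rose (named after its value was seen). With all 6 libraries, the 10 that fell were the 10 ER genes. Without siIRF4 replicate 1, 10 of the 25 fell and 0 rose. The stretches around the matches are shown for HERPUD1, HYOU1, SDF2L1 and HSPA5, which had the largest falls among the 10, and for the abundant chaperone gene CALR and the regulator XBP1, with the element in capitals, on the strand of the gene and ending before its start. HYOU1 has a pair of ERSE-II matches.
HERPUD1, chr16:56932000-56932060, plus strand, ERSE-II: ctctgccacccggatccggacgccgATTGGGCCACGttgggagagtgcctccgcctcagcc
HYOU1, chr11:119057355-119057415, minus strand, ERSE-II in reverse: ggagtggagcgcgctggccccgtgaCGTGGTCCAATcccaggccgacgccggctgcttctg
HYOU1, chr11:119057249-119057309, minus strand, ERSE-II in reverse: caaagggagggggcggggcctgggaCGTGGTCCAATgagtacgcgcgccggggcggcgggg
SDF2L1, chr22:21642089-21642149, plus strand, ERSE-II in reverse: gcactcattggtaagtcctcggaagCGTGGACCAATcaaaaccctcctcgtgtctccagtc
HSPA5, chr9:125241366-125241434, minus strand, ERSE: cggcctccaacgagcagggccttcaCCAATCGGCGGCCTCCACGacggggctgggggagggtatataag
CALR, chr19:12938359-12938427, plus strand, ERSE in reverse: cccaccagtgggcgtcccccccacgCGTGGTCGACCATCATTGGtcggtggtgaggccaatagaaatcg
XBP1, chr22:28800578-28800646, minus strand, ERSE: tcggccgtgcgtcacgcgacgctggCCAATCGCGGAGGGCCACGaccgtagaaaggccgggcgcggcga

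**Figure D3:**
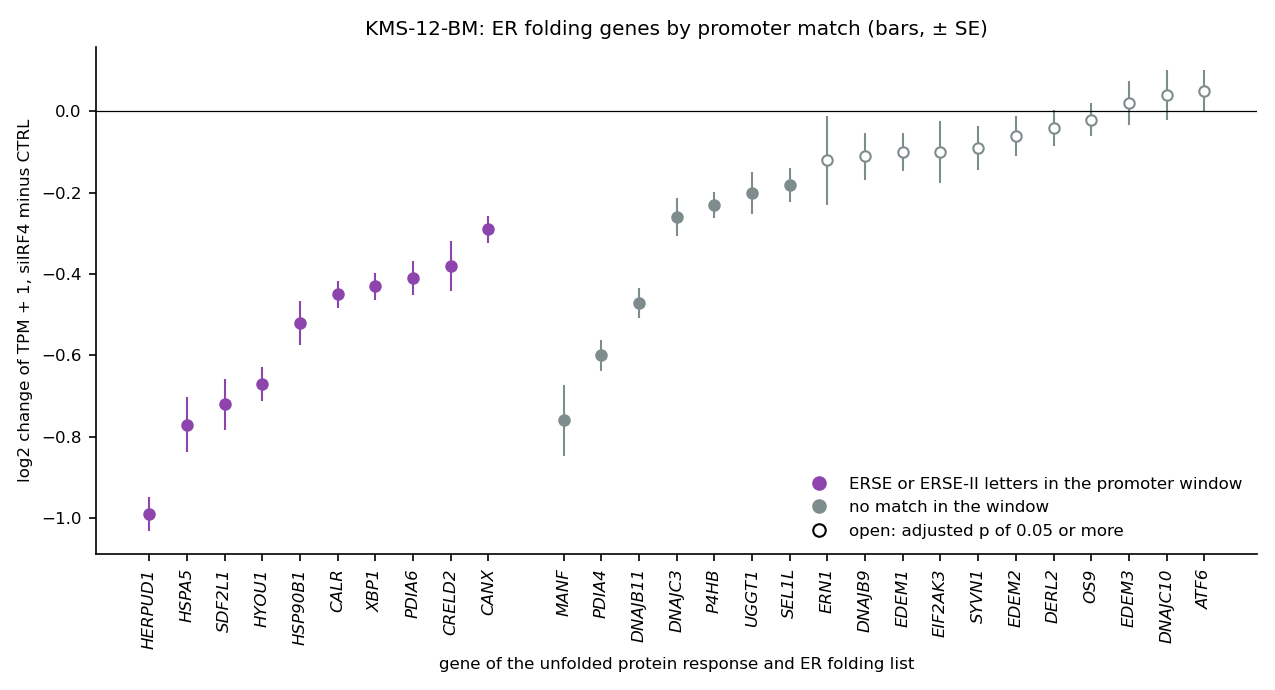
Log2 change (siIRF4 minus CTRL, ± SE) of the 28 ER folding genes with a promoter window, those with ERSE or ERSE-II letters on the left and those without on the right; open points did not pass. All 10 genes with a match fell, and 7 of the 18 without one did.

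On the deposited scale, the fall of ER genes was larger in KMS-12-BM than the mean of the other lines, but not larger than in KMS-12-PE. In a fit of all 24 libraries, the KMS-12-BM change lay below the mean change of the other lines in 22 of 33 members and above it in 2, against 12.2% of all genes below and 19.3% above. Against KMS-12-PE alone, the KMS-12-BM change lay above in 12 members, which is a smaller fall or none, and below in 3, against 15.7% and 7.47% of all genes. The median difference from KMS-12-PE over the list was 0.01. Over all genes this split depended on scaling, with 1340 above and 1419 below after median-of-ratios scaling. It was not recounted for this list. The list medians were -0.23 in KMS-12-BM, -0.29 in KMS-12-PE, 0.02 in MM1R and -0.05 in MM1S. For HERPUD1 the difference from the mean of the others was -0.80 ± 0.04 (adjusted p = 1.55e-11 in limma) and that from KMS-12-PE was -0.13 ± 0.05 (adjusted p = 0.0803 in limma), with changes of -0.86 in KMS-12-PE, 0.34 in MM1R and -0.05 in MM1S. Secretory transport genes moved less: 13 of 45 fell and 2 rose, with a median of -0.05, and without siIRF4 replicate 1 the counts were 12 and 0. KDELR1, the receptor that returns ER proteins from the Golgi, had the smallest p of these (log2 change -0.43 ± 0.05). DERL3, an ER degradation gene typical of plasma cells, averaged 106 ± 13 TPM in siIRF4 and 179 ± 8.1 TPM in CTRL.

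MYC and ribosome biogenesis genes fell, while cytosolic ribosomal protein genes did not pass. MYC was at 834, 810 and 824 TPM in siIRF4 and at 1176, 1135 and 1121 TPM in CTRL, with 71.9% of the CTRL level left (log2 change -0.47 ± 0.03, adjusted p = 1.40e-05 in limma). The difference from the mean of the other lines was -0.61 ± 0.05 (adjusted p = 1.15e-08 in limma), as MYC changed by -0.29 in KMS-12-PE, 0.46 in MM1R and 0.23 in MM1S. MXD3 and MXD4, which pair with MAX and repress MYC targets, rose. MXD3 averaged 12.7 ± 2.0 TPM in siIRF4 and 6.94 ± 0.11 TPM in CTRL, and MXD4 averaged 76.9 ± 10 TPM in siIRF4 and 51.9 ± 2.9 TPM in CTRL. Of 41 genes on the ribosome biogenesis list, 22 fell and none rose (median -0.14), against 7.28% of all genes called lower. Without siIRF4 replicate 1, 16 fell. The median of this list was also below 0 in the other lines: -0.20 in KMS-12-PE, -0.12 in MM1R and -0.24 in MM1S. Among the 22 were the helicase gene DDX21 and ODC1, which is on the list but encodes the first enzyme of polyamine synthesis. None of 48 cytosolic ribosomal protein genes passed in either direction, with a median of 0.01.

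Genes of the ATF4 response, which supplies amino acids under stress, fell more often than they rose. Of 26 tested genes of the ATF4 and amino acid response, 14 fell and 2 rose, with a median of -0.23 (12 and 2 without siIRF4 replicate 1). SLC7A5, the transporter of large neutral amino acids, was at 118, 127 and 135 TPM in siIRF4 and at 177, 176 and 164 TPM in CTRL (log2 change -0.45 ± 0.05). CHAC1, which degrades glutathione, averaged 3.55 ± 0.29 TPM in siIRF4 and 6.55 ± 0.53 TPM in CTRL. The risers were DDIT4, an inhibitor of mTORC1 (68.4 ± 8.9 TPM in siIRF4, 47.5 ± 4.0 TPM in CTRL), and TRIB3, a pseudokinase of the stress response (log2 change 0.18 ± 0.04). Of 23 aminoacyl-tRNA synthetase genes 9 fell, of 33 proteasome genes 8 fell and of 23 heat shock genes 5 fell, and none of these lists had a riser. Without siIRF4 replicate 1 the falls numbered 8, 4 and 3 in the same order. Over all genes 7.28% were called lower, and 7.04% without that library, so the proteasome and heat shock counts without it lie near that share.

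The counts of lipid synthesis genes depended on siIRF4 replicate 1. Of 25 cholesterol synthesis genes, 8 fell and 1 rose, with a median of -0.15; without that library 18 fell and 1 rose, with a median of -0.22. Of 15 fatty acid genes, 3 fell and 1 rose, against 8 and 1 without it. Over all genes, 7.28% were called lower, and 7.04% without siIRF4 replicate 1. INSIG1, the ER protein that holds back the sterol sensor SREBP, was at 266, 226 and 225 TPM in siIRF4 and at 455, 429 and 446 TPM in CTRL (log2 change -0.89 ± 0.06). SQLE, squalene epoxidase, was at 297, 251 and 258 TPM in siIRF4 and at 342, 324 and 330 TPM in CTRL. SCD, the stearoyl-CoA desaturase, was at 323 TPM in siIRF4 replicate 1 and at 255 and 258 TPM in the other siIRF4 libraries, against 297, 294 and 292 TPM in CTRL. In both genes siIRF4 replicate 1 was the highest siIRF4 library, and for SCD it was above all CTRL libraries. The part of the MM1-type transcripts in this was not tested.

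**Figure D4:**
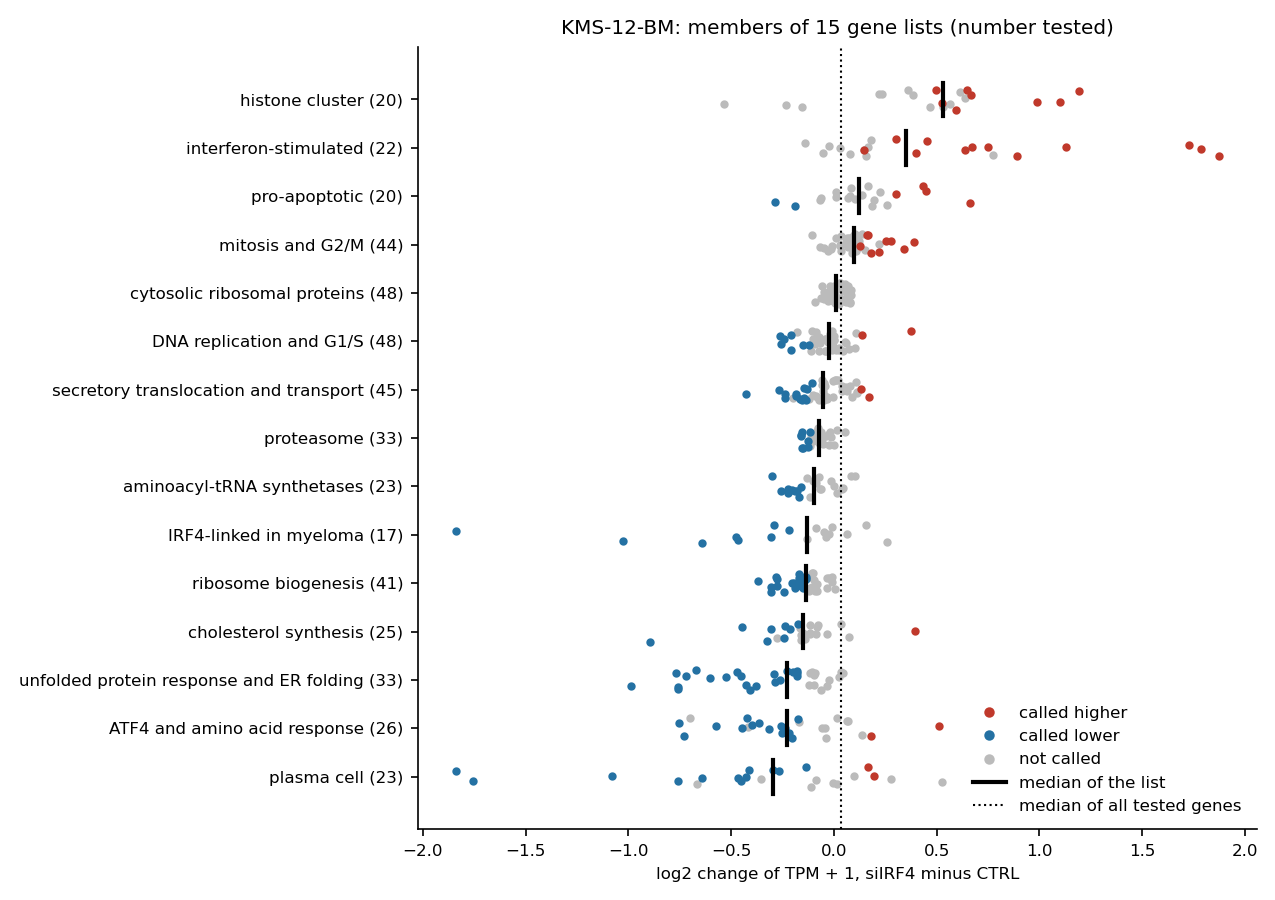
Log2 change of TPM + 1 (siIRF4 minus CTRL) of each tested member of 15 gene lists in KMS-12-BM, red where called higher, blue where called lower and grey where not called; the thick bar is the list median and the dotted line the median of all genes. Histone and interferon-stimulated genes lie to the right (medians 0.53 and 0.35), ER folding, ATF4 and plasma cell genes to the left (-0.23, -0.23 and -0.29).

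By the same criteria, the largest rise was in SMIM24, a small membrane protein gene. It was at 36.8, 31.3 and 30.7 TPM in siIRF4 and at 6.17, 7.33 and 7.51 TPM in CTRL (log2 change 2.08 ± 0.09, adjusted p = 2.08e-06 in limma). KMS-12-PE shared this rise (3.49), while the changes were 0.18 in MM1R and 0.11 in MM1S. FUT7, the fucosyltransferase that completes the selectin ligand sialyl Lewis X, was at 55.1, 52.8 and 46.6 TPM in siIRF4 and at 15.01, 16.8 and 14.3 TPM in CTRL (1.68 ± 0.07). ID2, an inhibitor of E-protein transcription factors, was at 126, 123 and 124 TPM in siIRF4 and at 63.8, 66.4 and 68.3 TPM in CTRL (0.90 ± 0.04). PVRIG, an inhibitory receptor otherwise known from T and NK cells, averaged 60.0 ± 8.9 TPM in siIRF4 and 23.1 ± 1.8 TPM in CTRL. The SRC-family kinase gene LCK and the perforin gene PRF1, both known from T and NK cells, rose at low levels. LCK averaged 6.88 ± 0.38 TPM in siIRF4 and 2.49 ± 0.52 TPM in CTRL, and PRF1 averaged 4.46 ± 1.3 TPM in siIRF4 and 0.867 ± 0.32 TPM in CTRL. Of 16 T and NK cell markers, 6 were tested and PRF1 and CD7 were called higher, as was NKG7 without siIRF4 replicate 1. The summed level of the 16 was 40.0 to 45.7 TPM in siIRF4 and 31.2 to 34.2 TPM in CTRL, with CD2 and GZMB at 0 in all 6 libraries and CD3D at or below 0.359 TPM. RB1, the retinoblastoma tumour suppressor, rose to 13.3 ± 2.3 TPM in siIRF4, against 6.84 ± 0.67 TPM in CTRL.

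Among the tested interferon-stimulated genes (ISGs), more rose than fell. Interferons act through factors such as STAT2 and IRF9 on the interferon-stimulated response element (ISRE), whose core is also read by other IRF proteins. Of 50 listed genes only 22 were expressed highly enough to be tested; 12 rose and none fell, with a median of 0.35, and the counts were 12 and 0 without siIRF4 replicate 1. Over all genes, 11.8% were called higher, and 8.57% without that library. The other 10 tested members did not pass. IFIT1, IFIT3, MX1 and RSAD2, named after their values were seen, were not tested. Each averaged 0.391 TPM or less in both conditions. The list medians in the other lines were 0.45 in KMS-12-PE, 0.53 in MM1R and 0.50 in MM1S. PARP12, an antiviral mono-ADP-ribosyltransferase, was at 8.76, 6.99 and 6.88 TPM in siIRF4 and at 1.45, 1.44 and 1.09 TPM in CTRL (log2 change 1.87 ± 0.12, adjusted p = 1.40e-05 in limma). UBE2L6, the conjugating enzyme for ISG15, was at 32.8, 26.5 and 24.1 TPM in siIRF4 and at 8.06, 5.89 and 8.09 TPM in CTRL (1.79 ± 0.15). ISG20, an exonuclease, was at 24.9, 18.5 and 17.5 TPM in siIRF4 and at 7.07, 4.74 and 4.53 TPM in CTRL (1.73 ± 0.20). In each of these 3 genes siIRF4 replicate 1 was the highest library. All siIRF4 libraries were above all CTRL libraries, which was a condition for the choice of the largest rises. EIF2AK2, the double-stranded RNA sensor PKR, averaged 5.40 ± 0.27 TPM in siIRF4 and 3.12 ± 0.35 TPM in CTRL. As no control siRNA is named, the loss of IRF4 and the delivery of siRNA as such cannot be told apart in these rises.

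The core of the ISRE was then searched in the same promoter windows, on both strands, as GAAA and GAAA with 2 bases between them, which 3.57% of the 35116 windows held. Of the 22 tested ISGs, 18 had a window and 11 of those held the core. Among the 11, 7 rose and 4 did not pass; among the 7 without it, 3 rose and 4 did not pass. Over all tested genes with a window, 327 held the core, of which 49 (15%) rose and 26 (7.95%) fell, near the 12.2% and 7.48% of all 8867 tested genes with a window. Without siIRF4 replicate 1, 34 of the 327 rose and 23 fell, and of the 8867, 771 rose and 632 fell. A composite core of ETS and IRF sites, GGAA and GAAA with 2 bases between them, which overlaps the ISRE core in part of its letters, was held by 2.82% of windows and by 295 tested genes, of which 42 (14.2%) rose and 15 (5.08%) fell. Without siIRF4 replicate 1, 37 of the 295 rose and 16 fell. The stretches with the ISRE core in capitals are shown for the risers with the largest changes. The PARP12 match touches the start of transcription.
PARP12, chr7:140062952-140062986, minus strand, ISRE core in reverse: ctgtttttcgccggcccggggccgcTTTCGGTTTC
ISG20, chr15:88638922-88638981, plus strand, ISRE core: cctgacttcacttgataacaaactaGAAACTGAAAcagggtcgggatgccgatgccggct
SAMD9, chr7:93118081-93118140, minus strand, ISRE core: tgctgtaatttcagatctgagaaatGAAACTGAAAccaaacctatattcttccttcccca

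Within the IRF family list, 9 members other than IRF4 were tested, among them the IRF2-binding protein genes IRF2BP1, IRF2BP2 and IRF2BPL; 3 rose and none fell, and after median-of-ratios scaling 2 rose and 1 fell. IRF1, an activator induced by interferon, was at 14.5, 12.1 and 10.9 TPM in siIRF4 and at 5.74, 6.17 and 6.85 TPM in CTRL (log2 change 0.89 ± 0.10, adjusted p = 0.000415 in limma). IRF9, the DNA-binding part of the interferon-activated complex, and IRF7, the amplifier of interferon responses, changed by 0.27 ± 0.07 and 0.28 ± 0.08. Without siIRF4 replicate 1, IRF1 was the one member that passed. IRF3, IRF5 and IRF2 had changes of -0.07 ± 0.05, 0.00 ± 0.06 and -0.06 ± 0.06, and none passed. Of the receptors and signal genes, 5 of 20 rose, among them JAK1 and IL10RB, and 3 fell, while without siIRF4 replicate 1 the counts were 4 and 5, and after median-of-ratios scaling 3 and 5. The 3 that fell were IFNAR2, a chain of the type I interferon receptor (-0.50 ± 0.05), IL6R, the receptor of the myeloma growth factor IL-6 (-0.49 ± 0.04), and SOCS2. The counts of both lists are to be read against 11.8% of all genes called higher and 7.28% called lower.

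NF-kB and cytokine genes moved in both directions. Of 24 NF-kB targets, 7 rose and 3 fell, with a median of 0.00, and without siIRF4 replicate 1 the counts were 7 and 4. These counts and those of the TNF superfamily are to be read against 11.8% of all genes called higher and 7.28% called lower. Without siIRF4 replicate 1 those shares were 8.57% and 7.04%. LTB, which encodes lymphotoxin beta, was at 97.5, 88.5 and 76.9 TPM in siIRF4 and at 38.3, 38.7 and 38.2 TPM in CTRL (log2 change 1.16 ± 0.08). NFKBIA, the inhibitor that NF-kB induces, averaged 137 ± 2.0 TPM in siIRF4 and 161 ± 5.0 TPM in CTRL. The chemokine genes CCL5 and CCL3 parted. CCL5 averaged 10.4 ± 1.0 TPM in siIRF4 and 5.73 ± 0.75 TPM in CTRL, and CCL3 was at 10.2, 5.82 and 4.70 TPM in siIRF4 and at 20.98, 16.03 and 20.3 TPM in CTRL. Its highest siIRF4 value was that of replicate 1, and its log2 change was -1.40 ± 0.30 with that library and -1.68 without it. Of 17 TNF superfamily genes 7 rose and 5 fell (5 and 4 without siIRF4 replicate 1), with TNFRSF18, which encodes GITR, rising (169 ± 8.5 TPM in siIRF4, 122 ± 1.7 TPM in CTRL) and TNFRSF1B, the second TNF receptor, falling (46.2 ± 0.87 TPM in siIRF4, 62.1 ± 2.1 TPM in CTRL).

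Among cell death genes, 4 of 20 pro-apoptotic members rose and 2 fell, with a median of 0.12 (3 and 2 without siIRF4 replicate 1), counts that lie near the shares of all genes (11.8% higher and 7.28% lower). BCL2L11, the BH3-only protein BIM, was at 39.6, 35.1 and 36.4 TPM in siIRF4 and at 23.3, 23.2 and 22.4 TPM in CTRL (log2 change 0.66 ± 0.05, adjusted p = 7.27e-05 in limma). CASP8, the initiator caspase of death receptors, averaged 54.7 ± 1.6 TPM in siIRF4 and 39.8 ± 2.3 TPM in CTRL. BMF, a BH3-only gene, was at 29.01, 21.1 and 20.02 TPM in siIRF4 and at 19.8, 18.6 and 19.0 TPM in CTRL. The high value was that of siIRF4 replicate 1, and the log2 change of 0.26 ± 0.13 did not pass (adjusted p = 0.229 in limma). It was 1.38 ± 0.11 below the mean of the other lines (adjusted p = 1.14e-08 in limma), where BMF changed by 1.51 in KMS-12-PE, 1.52 in MM1R and 1.89 in MM1S. BCL2, the target of venetoclax, averaged 56.2 ± 3.5 TPM in siIRF4 and 66.6 ± 1.9 TPM in CTRL and fell, and MCL1 did not pass (0.04 ± 0.06).

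Proliferation genes had list medians near 0. Of 48 DNA replication genes, 7 fell and 2 rose with a median of -0.03, and of 44 mitosis genes 9 rose and none fell with a median of 0.10 (4 and 1, and 6 and 0, without siIRF4 replicate 1). Over all genes, 11.8% were called higher and 7.28% lower, and 8.57% and 7.04% without that library. KIF4A, a mitotic kinesin, averaged 35.5 ± 2.3 TPM in siIRF4 and 26.9 ± 0.55 TPM in CTRL, and CCNE2, a cyclin of S phase entry, averaged 20.4 ± 1.5 TPM in siIRF4 and 15.4 ± 0.56 TPM in CTRL. The KMS-12-BM change was above the mean of the other lines in 48 of 48 replication genes and in 44 of 44 mitosis genes, against 19.3% of all genes. Against KMS-12-PE alone it was above in 2 and below in 1 of the replication genes, and above in 7 and below in 3 of the mitosis genes, against 15.7% and 7.47% of all genes. Medians of the replication list were -0.06 in KMS-12-PE, -0.70 in MM1R and -0.80 in MM1S, and those of the mitosis list 0.01, -0.71 and -0.61 in the same order. Histone cluster genes rose: 8 of 20 passed and none fell, with a median of 0.53 (7 and 0 without siIRF4 replicate 1). HIST1H2AC was at 54.7, 54.8 and 43.0 TPM in siIRF4 and at 22.3, 22.7 and 19.8 TPM in CTRL. Histone genes share near-identical coding sequence, so reads may be split between them.

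Other groups moved in part, and their counts are to be read against the 11.8% of all genes called higher and 7.28% called lower (8.57% and 7.04% without siIRF4 replicate 1). Of 22 p53 target genes, 7 rose and 2 fell (6 and 2 without siIRF4 replicate 1), with the stress regulator SESN1 at 36.9, 33.6 and 32.9 TPM in siIRF4 and at 22.3, 20.2 and 20.9 TPM in CTRL. Of 20 immediate early genes, 2 rose and 7 fell, and the counts were the same without that library; ZFP36, which destabilises cytokine mRNAs, averaged 54.4 ± 3.4 TPM in siIRF4 and 77.3 ± 3.9 TPM in CTRL. Of 19 genes of MHC class I and antigen processing, 4 rose, among them PSMB8, and 3 fell, CALR and PDIA3 among them, with both counts the same without siIRF4 replicate 1. None of 4 tested MHC class II genes passed. Of 14 tested surface antigens of immunotherapy, 3 rose and 3 fell (2 and 4 without that library), and CD47, the signal against phagocytosis, averaged 67.5 ± 2.9 TPM in siIRF4 and 52.6 ± 0.54 TPM in CTRL. Of 22 adhesion genes, 4 rose and 5 fell (2 and 5 without it). CD9, a tetraspanin, was at 959, 847 and 860 TPM in siIRF4 and at 625, 639 and 660 TPM in CTRL, whereas in KMS-12-PE it changed by -1.86. Of 23 glycolysis genes 1 rose and 5 fell (0 and 5 without siIRF4 replicate 1), and of 40 oxidative phosphorylation genes 2 rose and 2 fell (3 and 1 without it).

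The response of KMS-12-BM was compared with the other lines, each set against its own CTRL libraries. Calls in KMS-12-BM came from its 6 libraries, and calls in the other lines from the fit of all 24. All were limited to the 12576 genes tested in KMS-12-BM. The fit of all 24 called 1794 genes higher and 972 lower in KMS-12-BM itself, so the shares below compare calls of unlike fits. Of the 1485 genes called higher, 687 (46.3%) were also called higher in KMS-12-PE, 680 (45.8%) in MM1R and 778 (52.4%) in MM1S, where 17.5%, 24.7% and 29.7% of all genes were called higher. These shared genes made up 31.1%, 21.9% and 20.9% of the calls of those lines. Of the 916 genes called lower, 529 (57.8%) were also lower in KMS-12-PE, 437 (47.7%) in MM1R and 481 (52.5%) in MM1S, where 22.9%, 23.0% and 22.8% of all genes were. A total of 342 genes were higher and 279 lower in all 4 lines. These were 39.6% of the 864 genes higher and 27.3% of the 1021 genes lower in all 3 other lines. Of all tested genes, 11.8% were called higher and 7.28% lower in KMS-12-BM. Of its calls, 389 of the higher (26.2%) and 222 of the lower genes (24.2%) were called the same way in none of the others. By the test of the difference itself, the change in KMS-12-BM differed from the mean change of the others in 3961 genes (31.5%) and from the change in KMS-12-PE in 2915 genes (23.2%), of which 1975 (15.7%) lay above and 940 (7.47%) below KMS-12-PE. That last split depended on scaling, with 1340 above and 1419 below after median-of-ratios scaling. The losses of IRF4 differed between the lines, which was not adjusted for.

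A small set went against all the other lines: 13 genes higher and 17 lower in KMS-12-BM were called in the opposite direction in KMS-12-PE, MM1R and MM1S. The 13 were among 1021 genes lower, and the 17 among 864 genes higher, in all 3 of those lines. Both shares lie below the 11.8% of all genes called higher and the 7.28% called lower in KMS-12-BM. SGK1, a kinase of the AKT family, was at 6.17, 5.72 and 5.35 TPM in siIRF4 and at 9.33, 7.55 and 8.62 TPM in CTRL (log2 change -0.49 ± 0.09), whereas it rose by 1.27 in KMS-12-PE, 0.89 in MM1R and 1.13 in MM1S. ID3, an inhibitor of E proteins like ID2, averaged 149 ± 11 TPM in siIRF4 and 173 ± 3.4 TPM in CTRL, a change of -0.21 ± 0.05, and rose by 1.52, 0.66 and 0.83 in those lines. ID2 and ID3 moved in opposite directions in KMS-12-BM. NFKBIA, ICAM1, TNFRSF14 and POU2F2, the B cell octamer factor OCT2, belonged to the same set, all lower in KMS-12-BM. Without siIRF4 replicate 1 some of the set did not pass, ICAM1 among them (adjusted p = 0.0534 in limma). POU2F2 is named after its values were seen.

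**Figure D5:**
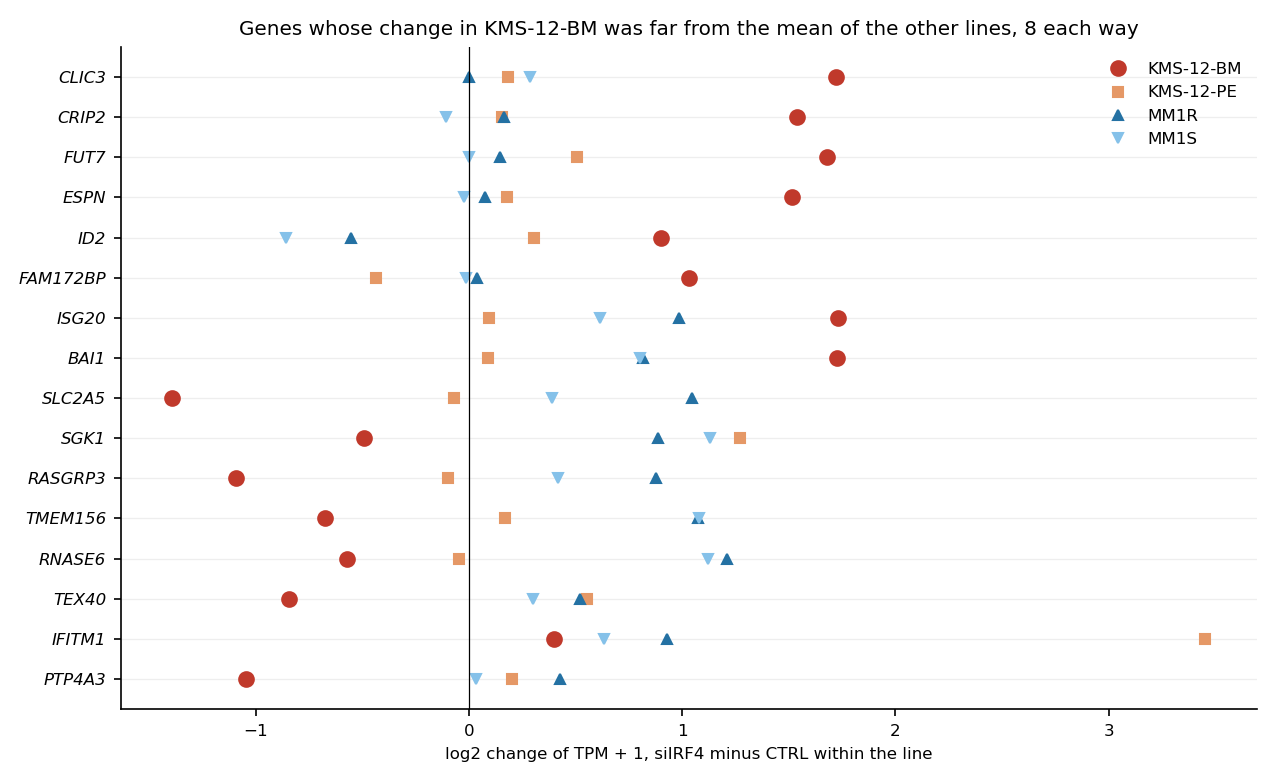
Log2 change (siIRF4 minus CTRL within each line) of 16 genes called in KMS-12-BM. They are the 8 in each direction with the largest difference from the mean of the other lines under set conditions. These were a mean of at least 5 TPM and not being open to MM1-type transcripts. The difference also had to pass without siIRF4 replicate 1, with a call without overlap in KMS-12-BM or another line. KMS-12-BM is the red circle, at the right end of the row in the upper 8 genes and at the left end in the lower 8.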

How the data were processed

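Total RNA of KMS-12-BM cells was sequenced by the authors from libraries of the NEBNext Ultra II kit, per the labels' protocols. Per the submitters' processing notes, hg19, STAR, featureCounts, FastQC and MultiQC were used, with no versions. The deposited values are TPM made by the authors, summing to the same total per library over 25370 listed genes, and 28 rows with symbols turned into dates were left out. Which annotation, strand setting and gene lengths entered the TPM is not given in the sources used here. Samples were grouped by title, and all 24 columns matched one sample.

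Differences were tested with limma (moderated, trend and robust) on log2(TPM + 1) over the 6 KMS-12-BM libraries, for genes of at least 1 TPM in at least 3 of them, with Benjamini-Hochberg adjustment over all 12576. Differences from other lines came from 1 fit of all 24 libraries. For depth, whole reads (within 0.02) were recovered for 20484 genes, which hold at least 99.96% of TPM. No replicate pair agreed within counting noise.

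The libraries and the 55 gene lists were chosen with earlier results of these data known. The rule for MM1-type genes (at least 50 TPM in every MM1 library and at most 1% of that level in KMS-12-BM CTRL) was set after the data were seen. Genes are named as the target and as the 15 largest rises and falls without overlap that were not open to MM1-type transcripts. Also named are the 8 genes each way farthest from the other lines, under conditions given below. Up to 3 called members each way per list and all members of 6 lists complete the names. Exceptions are stated. Replicate numbers did not pair siIRF4 with CTRL. The procedure was tested on simulated data.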

Additional observations from a re-analysis of the deposited data

Results flagged for a closer look

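The change in KMS-12-BM differed from the mean change of KMS-12-PE, MM1R and MM1S in 3961 genes by the test of the difference itself (limma, 24 libraries). Given here are the 8 genes in each direction that were farthest from that mean under set conditions. They averaged 5 TPM or more in one KMS-12-BM condition and were not open to MM1-type transcripts. Their difference also passed without siIRF4 replicate 1. They were called without overlap of siIRF4 and CTRL in KMS-12-BM or another line. In the upward direction, the difference on the log2 scale was 1.56 for CLIC3, a chloride intracellular channel gene, 1.47 for CRIP2, a LIM-domain gene, 1.46 for FUT7, 1.44 for ESPN, which encodes the actin bundler espin, and 1.27 for ID2. It was 1.17 for the pseudogene FAM172BP, 1.16 for ISG20 and 1.16 for BAI1, an adhesion receptor gene. CLIC3 averaged 8.80 ± 2.2 TPM in siIRF4 and 1.93 ± 0.19 TPM in CTRL, and in the other lines it changed by at most 0.29. CRIP2 averaged 80.2 ± 14 TPM in siIRF4 and 26.7 ± 1.5 TPM in CTRL. In both genes siIRF4 replicate 1 was the highest library, and the log2 change without it was 1.56 for CLIC3 and 1.41 for CRIP2.

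In the downward direction, the difference was -1.85 for SLC2A5, -1.59 for SGK1, -1.49 for RASGRP3, -1.45 for TMEM156, -1.34 for RNASE6, -1.3 for TEX40 and -1.27 for PTP4A3. It was -1.27 also for IFITM1, an antiviral membrane gene, which rose in KMS-12-BM by 0.40 but by 3.45 in KMS-12-PE, 0.93 in MM1R and 0.63 in MM1S. TMEM156 was at 17.0, 19.2 and 18.1 TPM in siIRF4 and at 29.4, 29.5 and 29.6 TPM in CTRL, a fall of 0.68 ± 0.06 on the log2 scale, while it rose by 1.08 in each of the MM1 lines.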

How the results depend on the processing

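The call of IRF4 held under every alternative tried, with log2 changes of -0.76 to -0.64 when 1 library was left out. Leaving out 1 library gave 834 to 1447 genes called higher and 514 to 885 called lower; the counts moved by over 1.5 times without CTRL replicate 1 (577 lower), CTRL replicate 2 (834 higher, 514 lower) and CTRL replicate 3 (945 higher). Differences from the mean of the other lines numbered 2080 to 2515 above and 1188 to 1595 below, and differences from KMS-12-PE 1479 to 2017 above and 745 to 964 below. With no filter on low values, 948 genes were higher and 608 lower. After median-of-ratios scaling, 1419 changes lay below those of KMS-12-PE. With the reads recovered and modelled with voom, 2123 genes were higher and 1285 lower. Correlations of same-numbered libraries were -0.04, 0.07 and 0.05, and a replicate block gave 1492 higher and 905 lower. Of 213 named genes that were called, 10 lost the call under the block, 27 without siIRF4 replicate 1, 50 without CTRL replicate 2 and 17 after median-of-ratios scaling, and none changed direction. Genes of a few TPM rest on few reads and give imprecise changes.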

Other observations

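Further gene groups showed smaller or mixed changes in KMS-12-BM. TXNIP, a brake on glucose uptake and thioredoxin, averaged 63.4 ± 6.6 TPM in siIRF4 and 35.3 ± 2.1 TPM in CTRL. BTG2, an antiproliferative early gene, was at 174, 133 and 131 TPM in siIRF4 and at 84.5, 85.2 and 91.4 TPM in CTRL. SEMA4A, a semaphorin under study as a myeloma antigen, was at 43.5, 36.0 and 38.8 TPM in siIRF4 and at 71.8, 67.7 and 74.2 TPM in CTRL, a log2 change of -0.84 ± 0.07. DNMT3B, a de novo DNA methyltransferase, averaged 18.2 ± 1.7 TPM in siIRF4 and 29.5 ± 0.96 TPM in CTRL and was the one faller among 22 polycomb and methylation enzymes, of which none rose; without siIRF4 replicate 1, and after median-of-ratios scaling, 2 fell. Of 19 acetyltransferases and bromodomain readers, KAT2B and BRD3 rose and none fell, and neither passed without siIRF4 replicate 1. With all libraries, the counts of both lists lie near or below the 11.8% of all genes called higher and the 7.28% called lower.

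Among the siIRF4 libraries, replicate 1 was the highest in 1050 of the 1485 genes called higher (70.7%) and the lowest in 388 of the 916 called lower (42.4%). Replicate 2 was the highest in 270 and replicate 3 in 165 of the genes called higher. The same shares over all tested genes were not counted. Replicate 1 also had the least IRF4, the most MM1-type transcripts and the highest median-of-ratios scaling factor. That factor was 1.05 in replicate 1, 1.01 and 0.995 in the other siIRF4 libraries, and 0.993, 0.992 and 0.978 in CTRL. A higher factor means higher deposited values in the median gene. The part of each of these was not tested.

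Of 12 stromal markers, 2 were tested and COL6A3, a collagen gene, fell (40.4 ± 1.4 TPM in siIRF4, 67.1 ± 2.5 TPM in CTRL). The summed level of the 12 was 45.5 to 47.2 TPM in siIRF4 and 71.2 to 75.9 TPM in CTRL. The fibrillar collagen genes COL1A1, COL1A2 and COL3A1 stayed below 1 TPM in all 6 libraries.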
